A study of Mus musculus with 6 samples.

Results

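The Entpd genes encode the NTPDases, a family of enzymes that remove phosphates from nucleoside tri- and diphosphates. They were examined in livers of mice lacking one of them, Entpd8. All 8 family genes, Entpd1 to Entpd8, were looked up by symbol among the 45706 genes of the deposited table, and each had 1 row. Poly(A) RNA had been sequenced from 3 livers labelled ENTPD-8 knockout (KO 1 to KO 3) and 3 labelled wild type (WT 1 to WT 3), in a series on liver ischemia. The labels give neither the allele nor whether the loss was limited to one cell type. They are also silent on the age and sex of the mice, on ischemia in these livers and on whether each library stands for its own mouse. P-values therefore measure the spread between these libraries, which may in part be technical. Total counts ran from 40800058 to 46473531 in the knockout libraries and from 32768774 to 39929978 in the wild-type libraries.

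The family falls into 2 sets. NTPDase1 (CD39, gene Entpd1), NTPDase2, NTPDase3 and NTPDase8 sit in the plasma membrane with their active sites outside the cell, where they take ATP and ADP down towards AMP and so limit signalling through P2 receptors. AMP then becomes adenosine through the nucleotidase CD73. NTPDase4 to NTPDase7 work inside the cell, mostly in the Golgi, the endoplasmic reticulum and vesicles, where they clear diphosphates such as UDP that glycosylation leaves behind. In the liver, NTPDase8 is known from the canalicular membrane of hepatocytes, CD39 from endothelial cells and leukocytes, and NTPDase2 from portal fibroblasts.

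What unites the members is a set of short apyrase conserved regions that form the active site. The coding bases of the first region are shown because they are the family's signature. They also show how far the genes have diverged at the level of bases, which bears on how reads can be told apart. Each stretch holds 39 bases of GENCODE M21 coding sequence, and capitals mark the 5 codons of the conserved region.
Entpd8: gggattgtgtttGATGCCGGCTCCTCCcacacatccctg
Entpd1: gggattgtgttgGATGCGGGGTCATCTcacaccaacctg
Entpd2: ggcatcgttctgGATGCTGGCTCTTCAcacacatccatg
Entpd3: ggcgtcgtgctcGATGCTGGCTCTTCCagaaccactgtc
Entpd5: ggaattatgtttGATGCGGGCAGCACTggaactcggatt
Entpd6: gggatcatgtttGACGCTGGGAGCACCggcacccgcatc
Entpd4: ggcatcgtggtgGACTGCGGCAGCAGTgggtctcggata
Entpd7: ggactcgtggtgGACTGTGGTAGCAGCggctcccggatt

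In Entpd8 the capitals cover coding bases 142 to 156. Over the whole stretch Entpd1 shares 31 of the 39 bases with Entpd8, Entpd2 shares 30, Entpd3 and Entpd6 share 24 each and Entpd5 shares 23. The stretches of Entpd4 and Entpd7 are less like that of Entpd8, with 17 and 16 shared bases. Across all annotated transcripts the longest identical run between Entpd8 and another of the 8 genes was 19 bases, with Entpd3. No run of 30 bases of any Entpd8 transcript occurred in an annotated transcript of another gene. This search was made for Entpd8 alone. The longest transcript of Entpd4, of 3589 bases, is identical to that of a second copy, Entpd4b, so their reads cannot be told apart there.

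The first question was how much Entpd8 transcript remained in the knockout livers. Entpd8 (ENSMUSG00000036813) is a plus-strand gene at positions 25080304 to 25085716 of chromosome 2 (GRCm38). In CPM, counts scaled to library size with TMM factors, it had 0.382, 0.723 and 1.09 CPM in KO 1, KO 2 and KO 3, against 39.0, 22.4 and 56.5 CPM in WT 1, WT 2 and WT 3. Every knockout library was far below every wild-type library. Entpd8 fell by 5.72 ± 0.48 on the log2 scale (SE, 95% interval -6.83 to -4.60, adjusted p = 0.00151, edgeR quasi-likelihood test).

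The residue was small and uneven. Relative to the wild-type mean it was 0.971% in KO 1 (15 counts, exact Poisson 95% interval 0.543% to 1.60%), 1.84% in KO 2 (29 counts, 1.23% to 2.64%) and 2.78% in KO 3 (52 counts, 2.08% to 3.65%). These intervals cover counting error only and take the wild-type mean as fixed. The intervals of KO 1 and KO 3 did not overlap, so the 2.86-fold range among knockout libraries exceeded counting error. Wild-type libraries differed by a similar factor, with WT 3 at 2.52 times the level of WT 2. On average 1.86% of the wild-type level remained. Counts per gene do not show which exons the residual reads covered. Noxa1, which overlaps Entpd8 by 50 exon bases on the other strand, had 0 to 3 counts in any library, fewer than the residual Entpd8 counts.

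**Figure D1:**
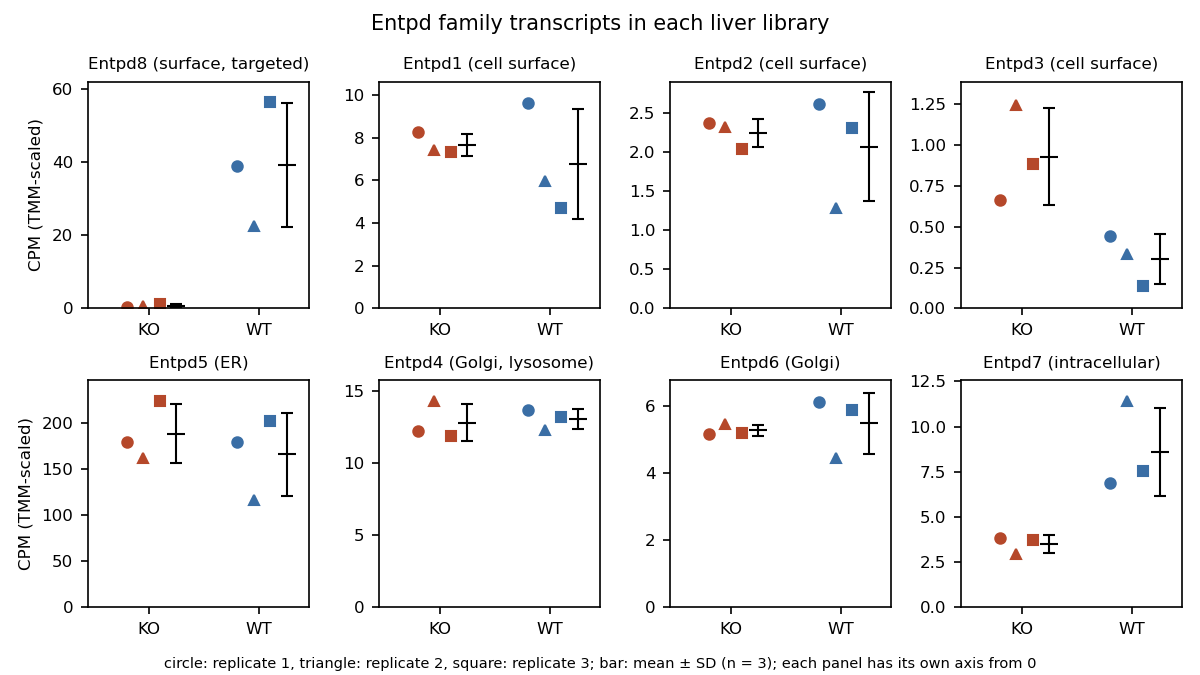
TMM-scaled CPM of the 8 Entpd genes in each of the 3 KO and 3 WT libraries, with symbols for replicates and bars for the mean ± SD. KO and WT points are apart for Entpd8, Entpd3 and Entpd7 and overlap for Entpd1, Entpd2, Entpd4, Entpd5 and Entpd6.

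The next question was whether the other family members differed between the genotypes. All 8 genes passed the filter on low counts, Entpd3 through the knockout libraries, since 3 KO but only 2 WT libraries reached its minimum. Besides Entpd8, 1 member was higher (Entpd3) and 1 lower (Entpd7) in knockout livers, so 3 of 8 passed an adjusted p of 0.05, Entpd8 included. Among all 14069 genes tested 20.4% passed, 9.8% higher and 10.6% lower. The same 3 members had groups that did not overlap, as had 40.7% of all genes tested. Passing genes were therefore common in this comparison. For 7 paralogs the background share corresponds to 1 or 2 genes, against the 2 found. Of these 2, Entpd3 was tested through the group where it was high, so its call carries no support of its own.

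Entpd3 encodes NTPDase3, a surface enzyme best known from neurons and endocrine cells. It had 0.662, 1.25 and 0.883 CPM in KO 1, KO 2 and KO 3, against 0.441, 0.333 and 0.139 CPM in WT 1, WT 2 and WT 3. Behind these values stood 26, 50 and 42 counts in knockout and 16, 13 and 5 counts in wild-type libraries, so Entpd3 was the scarcest member in wild-type libraries, and counting error alone is large. The lowest knockout library was above the highest wild-type library. Entpd3 rose by 1.60 ± 0.47 on the log2 scale (SE, 95% interval 0.52 to 2.68, adjusted p = 0.0457, edgeR), a 3.03-fold change. The call did not survive the loss of any 1 library, with adjusted p from 0.0584 without WT 1 to 0.137 without KO 2 and log2 fold changes from 1.26 without WT 3 to 1.95 without WT 1. It also did not pass with upper-quartile scaling (adjusted p = 0.0519), and under a filter of 1 CPM in 3 libraries it was not tested.

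Entpd7 encodes an intracellular NTPDase of cytoplasmic vesicles. Its levels were 3.82, 2.94 and 3.74 CPM in KO 1, KO 2 and KO 3, against 6.89, 11.4 and 7.52 CPM in WT 1, WT 2 and WT 3. Knockout libraries lay close together, while WT 2 stood above the other wild-type libraries. Entpd7 fell by 1.30 ± 0.24 on the log2 scale (SE, 95% interval -1.84 to -0.76, adjusted p = 0.0108, edgeR), to 0.407 of the wild-type level. This was the one paralog change that kept its direction and passed without each single library. Its smallest size was a log2 fold change of -1.04 without WT 2, and its highest adjusted p was 0.0481 without KO 1. Entpd7 shares 444 exon bases with Cox15 on the opposite strand, and the labels do not say whether the strands were kept apart. Cox15 had 647 to 810 counts in knockout and 726 to 948 counts in wild-type libraries.

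**Figure D2:**
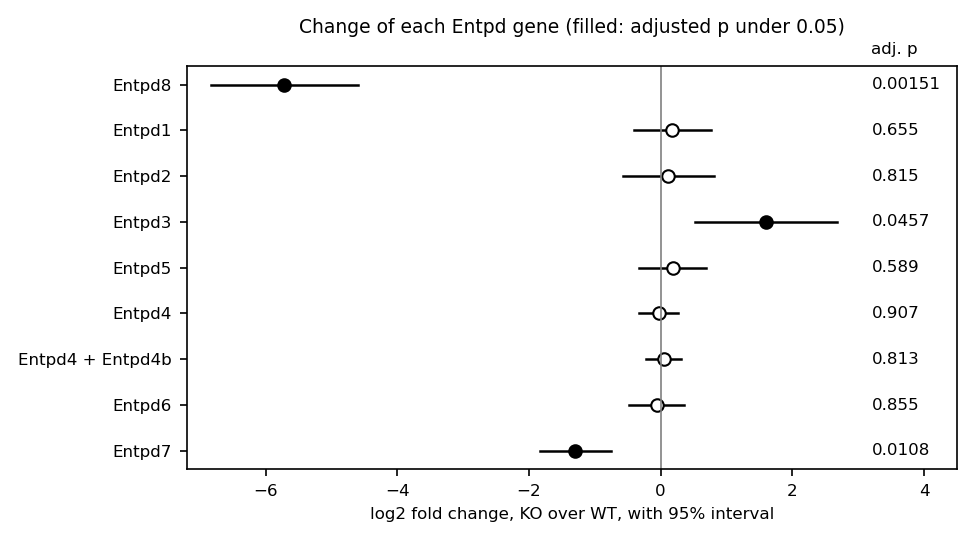
Log2 fold change, KO over WT, of each Entpd gene with its 95% interval from edgeR, and of Entpd4 and Entpd4b summed; filled points passed an adjusted p of 0.05. Entpd8, Entpd3 and Entpd7 passed, and the other intervals include 0.

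**Figure D3:**
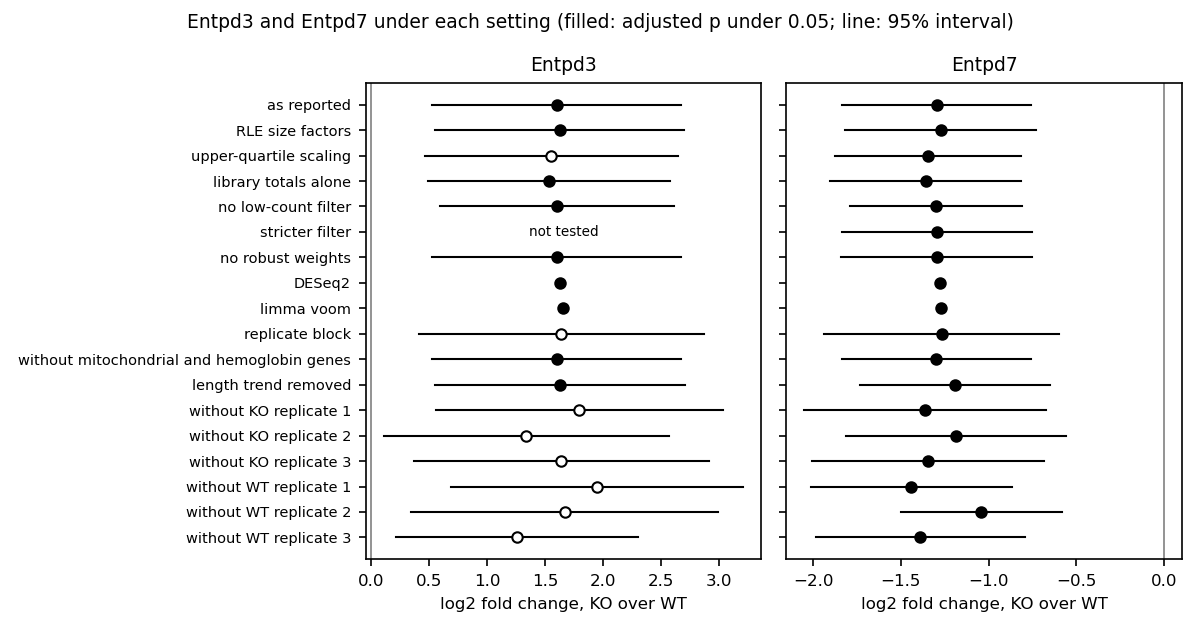
Log2 fold changes, KO over WT, of Entpd3 and Entpd7 under each processing setting and without each library, with 95% intervals where the tool was edgeR; filled points passed an adjusted p of 0.05. Entpd7 is filled in every row, while Entpd3 is open without any 1 of the 6 libraries.

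Of the surface enzymes that remained, Entpd1 is the main source of ATP and ADP hydrolysis on vessels and leukocytes. It had 8.24, 7.40 and 7.34 CPM in KO 1, KO 2 and KO 3, against 9.64, 5.97 and 4.69 CPM in WT 1, WT 2 and WT 3. All knockout values lay inside the wild-type range. The fitted ratio was 1.13 (95% interval 0.753 to 1.70, adjusted p = 0.655, edgeR), so neither a modest fall nor a rise of up to 1.70-fold is outside the interval. This estimate moved with single wild-type libraries. Without WT 1 the log2 fold change was 0.52 (95% interval 0.07 to 0.97, adjusted p = 0.117, edgeR), and without WT 3 it was -0.03. Markers of sinusoidal endothelial cells summed to 149 to 228 CPM in knockout and 193 to 242 CPM in wild-type libraries, and 2 of 10 fell. Kupffer cell and macrophage markers summed to 70.9 to 99.6 CPM in knockout and 140 to 311 CPM in wild-type libraries, and 6 of 10 fell. Among all genes tested 10.6% were lower. None of the markers on either list was at 0 in all libraries. In bulk liver, fewer cells of a type and less RNA per cell cannot be told apart, and the part of cell composition in the Entpd1 values was not tested.

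Entpd2, whose product prefers ATP over ADP, is the nearest family neighbour of Entpd8 on the chromosome and starts 310.2 kb beyond its end. Its levels were 2.37, 2.32 and 2.04 CPM in KO 1, KO 2 and KO 3, against 2.62, 1.28 and 2.30 CPM in WT 1, WT 2 and WT 3. Here too the groups overlapped. The fitted ratio was 1.08 (95% interval 0.670 to 1.75, adjusted p = 0.815, edgeR). Portal fibroblast markers, from the cells that carry NTPDase2 in liver, summed to 35.5 to 70.3 CPM in knockout and 73.8 to 102 CPM in wild-type libraries. Of these markers 2 of 8 (Eln and Gas6) were lower, beside 10.6% of all genes tested. The list's median log2 fold change was 0.17, and Thy1 (0.51), Fbln2 (0.62), Mfap4 (0.21), Dpt (0.12) and Msln (0.25) had positive values, none of which passed. Gas6, which other cells also express, made up most of that sum, with 44.2 ± 13.9 CPM in knockout and 83.6 ± 17.2 CPM in wild-type livers (SD, n = 3 per group), and its part in the Entpd2 values was not tested. Entpd2 shares 612 exon bases with Npdc1 on the same strand, so its estimate depends on how reads were divided there.

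Levels of different genes were compared per length, as CPM per kilobase of annotated exon. On this scale Entpd8 was the most abundant surface member in each wild-type library, and the remainder in knockout livers was low and even. The order depends on the length used: with the median annotated transcript, which is short for Entpd1, WT 2 had 12.6 CPM per kb of Entpd1 and 12.5 CPM per kb of Entpd8. The sum of Entpd1, Entpd2, Entpd3 and Entpd8 was 2.91, 3.01 and 2.91 CPM per kb in KO 1, KO 2 and KO 3, against 17.4, 10.03 and 22.8 CPM per kb in WT 1, WT 2 and WT 3. Summed surface transcripts in knockout livers were thus 17.6% of the wild-type mean, or 17.9% with the longest and 48.7% with the median transcript as gene length. Entpd8 itself made up 9.17 ± 4.51% of that sum in knockout and 85.4 ± 5.18% in wild-type livers (SD, n = 3 per group). In knockout livers Entpd1 held 46.7 ± 3.65% and Entpd2 35.8 ± 2.69%. Entpd3, despite its rise, averaged 0.248 ± 0.0786 CPM per kb in knockout and 0.0810 ± 0.0408 CPM per kb in wild-type livers, beside 0.270 ± 0.131 and 14.5 ± 6.27 CPM per kb of Entpd8 in the same groups.

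**Figure D4:**
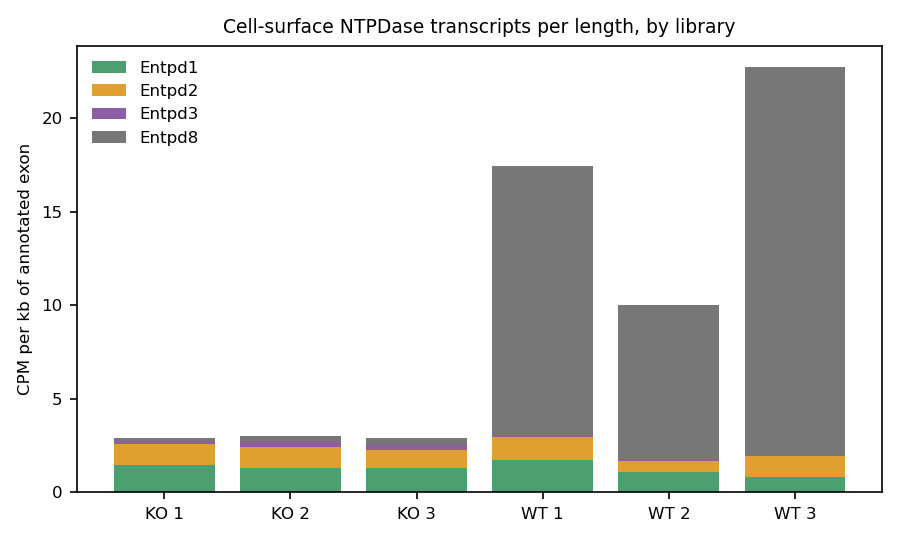
CPM per kilobase of annotated exon of the 4 cell-surface NTPDase genes, stacked for each library. The KO bars reach 2.91 to 3.01 and the WT bars 10.03 to 22.8, with Entpd8 as the largest part of each WT bar.

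Among the intracellular members Entpd5 was by far the most abundant. Its product is a UDPase of the endoplasmic reticulum that supports the refolding cycle of glycoproteins. It had 179.5, 162 and 224 CPM in KO 1, KO 2 and KO 3, against 179, 116 and 202 CPM in WT 1, WT 2 and WT 3. WT 2 was the lowest library, and the groups overlapped. The fitted ratio was 1.14 (95% interval 0.799 to 1.61, adjusted p = 0.589, edgeR). Per length it averaged 31.2 ± 5.28 CPM per kb in knockout and 27.4 ± 7.40 CPM per kb in wild-type livers. It made up 86.6 ± 2.58% and 83.3 ± 4.22% of the intracellular set, with Entpd4b counted in, in those groups (SD, n = 3 per group). These shares were 79.3% and 75.4% with the longest transcript as length, and 77.2% and 71.4% with the median. In each wild-type library Entpd5 was also above Entpd8.

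Entpd4 encodes a UDPase of the Golgi and lysosomes, and Entpd6 a Golgi enzyme that can also be secreted. Because of the identical copy, Entpd4 was read together with Entpd4b. The table gave Entpd4 47.9% to 55.3% of the pair's counts in each library. Summed, the pair had 25.5, 29.1 and 24.0 CPM in KO 1, KO 2 and KO 3, against 24.7, 24.8 and 26.7 CPM in WT 1, WT 2 and WT 3. This is the narrowest interval in the family, a log2 fold change of 0.05 (95% interval -0.22 to 0.31, adjusted p = 0.813, edgeR), and the sum was added after the data were seen. Entpd4 alone gave -0.03 (95% interval -0.32 to 0.27, adjusted p = 0.907). Entpd6 had 5.14, 5.46 and 5.17 CPM in KO 1, KO 2 and KO 3, against 6.12, 4.43 and 5.86 CPM in WT 1, WT 2 and WT 3. Its groups overlapped as well, with a ratio of 0.962 (95% interval 0.720 to 1.28, adjusted p = 0.855, edgeR).

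Ordered per kilobase of annotated exon, wild-type livers had Entpd5 and Entpd8 at the top, and across libraries the ranges of these genes met (19.2 to 33.5 and 8.27 to 20.8 CPM per kb). Then came a group whose neighbours overlapped, with Entpd4 at 1.62, Entpd4b at 1.53, Entpd1 at 1.21, Entpd6 at 1.15, Entpd2 at 0.972 and Entpd7 at 0.960 CPM per kb. Entpd3, at no more than 0.117 CPM per kb, was below all of these. Knockout livers had Entpd5 alone at the top. With the copies again counted apart, Entpd4b at 1.66, Entpd4 at 1.59 and Entpd1 at 1.37 CPM per kb overlapped one with the next. So did Entpd6 at 1.10 and Entpd2 at 1.05, while in knockout libraries the lowest Entpd1 value, 1.32, was above the highest Entpd6 value, 1.14. With the longest transcript as length this gap closed, with 1.74 to 1.95 CPM per kb of Entpd1 and 1.78 to 1.89 CPM per kb of Entpd6 in knockout libraries, and in wild-type livers Entpd6 (1.89) then averaged above Entpd1 (1.60). The lowest places were those of Entpd7 at 0.391, Entpd8 at 0.270 and Entpd3 at 0.248 CPM per kb, again with overlapping ranges. The middle order depends on the length. With the median transcript, wild-type livers averaged 14.3 CPM per kb of Entpd1, 5.85 of Entpd4, 4.70 of Entpd7 and 1.16 of Entpd2. Knockout livers then averaged 16.2 CPM per kb of Entpd1, and Entpd7 (1.91) was above Entpd2 (1.26).

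The wild-type libraries were not alike across the family. WT 2 had the lowest level of Entpd2, Entpd5, Entpd6 and Entpd8 among them and the highest of Entpd7. Entpd4 and Entpd4b summed were lowest in WT 1, with 24.7 CPM beside 24.8 CPM in WT 2. Leaving WT 2 out gave log2 fold changes of -0.02 for Entpd5, -0.14 for Entpd2 and -0.19 for Entpd6, none of which passed. Without it the residual Entpd8 level was 1.53% of the wild-type mean.

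Genes whose pattern over the 6 libraries was most like that of each called member were ranked by the root mean square difference in log2 CPM after each gene was centred on its wild-type mean. Entpd7 was closest to Zscan22, with a difference of 0.164, to Fam25c (0.175) and to the acute-phase protease inhibitor Serpina3n (0.176). For example, Serpina3n had 1743, 1415 and 1792 CPM in KO 1, KO 2 and KO 3, against 4141, 6192 and 3333 CPM in WT 1, WT 2 and WT 3. Like Entpd7, it was highest in WT 2. Entpd3 was closest to the pyrin gene Mefv (0.148), to Lonrf3 (0.202) and to the MAP kinase phosphatase Dusp4 (0.234). Entpd8 had no close match among the 10481 genes considered, with A2m nearest at a difference of 1.33, then Siglec1 at 2.23 and Peg3 at 2.34. The difference includes the size of a change, so only genes with a similarly large fall could come close to Entpd8. Unlike Entpd8, A2m was highest in WT 2, with 157 CPM. Siglec1 and Peg3, like Entpd8, were lowest among wild-type libraries in WT 2, with 1.87 and 6.35 CPM.

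The genes around the family in purine handling were counted from fixed lists and read against the shares of all genes given above, whose median log2 fold change was -0.02. Of 28 other nucleotide and adenosine converting enzymes tested, 5 were higher and 3 lower in knockout livers, with a median log2 fold change of 0.23. The pyrimidine nucleotidase Nt5c3 had 33.6, 29.3 and 33.4 CPM in KO 1, KO 2 and KO 3, against 16.8, 14.7 and 13.5 CPM in WT 1, WT 2 and WT 3, a log2 fold change of 1.10 ± 0.13 (SE, adjusted p = 0.00287, edgeR). Cant1, a Golgi nucleotidase that like NTPDase4 hydrolyses UDP, fell by 0.70 ± 0.10 on the log2 scale (adjusted p = 0.00556), to 22.1 ± 0.718 CPM in knockout against 35.9 ± 1.69 CPM in wild-type livers. Enpp4, an ectoenzyme that cleaves dinucleotides, fell by 0.83 ± 0.14 on the log2 scale, and the acid phosphatase Acpp by 1.08 ± 0.20. Enpp4 did not pass without KO 1 (adjusted p = 0.0513). The list had 2 members higher without KO 1 or without KO 2, and 3 without WT 1.

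The remaining 4 called enzymes fell outside the naming rule and were named after their values were seen. All were higher in knockout livers. Alpl, the tissue-nonspecific alkaline phosphatase, had a log2 fold change of 1.41 ± 0.27 (SE), and passed without each single library. Ampd3 (1.25 ± 0.33), Enpp2 (0.61 ± 0.14) and Nt5c2 (0.45 ± 0.12) did not pass without 5, 3 and 5 of the 6 libraries.

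On the receptor side, 2 of 17 genes for P2 receptors and ATP release were higher and 0 lower, with a median log2 fold change of 0.08. Gja1, the gap junction gene connexin 43, was 1.03 ± 0.22 log2 units higher (SE, adjusted p = 0.0187, edgeR) but did not pass without KO 1 (adjusted p = 0.0627). P2ry10, outside the naming rule, had 20, 23 and 23 counts in KO 1, KO 2 and KO 3, against 8, 8 and 3 counts in WT 1, WT 2 and WT 3, and lost its call without any 1 library. P2ry10 too reached the filter on low counts through the knockout libraries alone, where it was high, so this call carries no support of its own. P2ry2, a receptor for ATP and UTP, had 22.2 to 52.8 CPM in knockout and 20.1 to 23.6 CPM in wild-type libraries and did not pass (adjusted p = 0.0760, edgeR).

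Of 8 adenosine receptor and nucleoside transporter genes, 1 was higher and 2 lower, with a median log2 fold change of 0.39. The adenosine A1 receptor gene Adora1 had 16.1, 17.7 and 11.9 CPM in KO 1, KO 2 and KO 3, against 46.5, 20.5 and 30.3 CPM in WT 1, WT 2 and WT 3 (adjusted p = 0.0398, edgeR). The lysosomal nucleoside transporter gene Slc29a3 fell by 1.02 ± 0.23 on the log2 scale (adjusted p = 0.0198). Both calls needed all libraries but WT 2, since leaving out KO 1, KO 2, KO 3, WT 1 or WT 3 ended them (highest adjusted p 0.0777 for Slc29a3 and 0.121 for Adora1). Slc28a1, a concentrative nucleoside transporter outside the naming rule, had 15, 11 and 23 counts in KO 1, KO 2 and KO 3, against 1, 0 and 0 counts in WT 1, WT 2 and WT 3 (adjusted p = 0.00785, edgeR). It reached the filter on low counts through the knockout libraries alone, where it was high, so this call and the list's 1 higher member carry no support of their own.

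Lists of partners of the intracellular members were counted in the same way. In the glycoprotein folding list, 1 of 19 was higher and 1 lower, with a median log2 fold change of -0.09. Ugp2, which makes the UDP-glucose used in that cycle, had 279 ± 38.7 CPM in knockout and 152 ± 15.2 CPM in wild-type livers (SD, n = 3 per group), a log2 fold change of 0.88 ± 0.15 (SE, adjusted p = 0.00915, edgeR; 0.0505 without KO 1). Uggt2, a glucosyltransferase that produces the UDP cleaved by Entpd5, was the gene that fell, by 0.89 ± 0.26 on the log2 scale, and its call was lost when KO 1, KO 2, KO 3, WT 1 or WT 3 was left out (highest adjusted p 0.151). Of 14 nucleotide sugar transporters, 1 was higher (Slc35b3) and 1 lower (the UDP-galactose transporter Slc35a2, a fall of 0.63 ± 0.13 on the log2 scale). Slc35a2 lost its call without KO 1 (adjusted p = 0.0791) and Slc35b3 without 4 of the 6 libraries.

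The canalicular membrane list, which covers the hepatocyte face where NTPDase8 is known to reside, had 3 of 15 higher and 1 lower, with a median log2 fold change of 0.27. Aqp8, a water channel, had 137, 137 and 149 CPM in KO 1, KO 2 and KO 3, against 69.8, 40.7 and 35.2 CPM in WT 1, WT 2 and WT 3 (log2 fold change 1.54 ± 0.25 (SE), adjusted p = 0.00807, edgeR). The flippase gene Atp8b1 had 26.2 to 26.3 CPM in knockout and 50.6 to 62.3 CPM in wild-type libraries (adjusted p = 0.00239). Both passed without each single library. Abcb1a (1.08 ± 0.24) lost its call without KO 1, KO 3 or WT 3, and Slc47a1 (0.72 ± 0.18) without KO 1 or KO 3.

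Other features of the libraries also moved with genotype. The counts of called markers below stand beside 9.8% of all genes tested higher and 10.6% lower. Mitochondrially encoded transcripts made up 10.1% to 11.7% of counts in knockout and 6.52% to 8.34% in wild-type libraries. Hemoglobin transcripts made up 0.0997% to 0.145% of counts in knockout and 0.0308% to 0.0486% in wild-type libraries. Hepatocyte markers, led by Alb, were high throughout and overlapped between the groups (55167 to 73669 CPM in knockout, 49675 to 65968 CPM in wild-type libraries), with 1 of 8 higher (Asgr2). B and plasma cell markers were 35.8 to 53.3 CPM in knockout and 1.15 to 2.81 CPM in wild-type libraries, with 3 of the 4 tested higher. Bile duct markers were 125 to 316 CPM in knockout and 82.8 to 112 CPM in wild-type libraries, with 2 of 6 tested higher (Krt19 and Epcam). Most of that sum was Spp1 (means of 161 CPM in knockout and 67.6 CPM in wild-type livers), which did not pass (adjusted p = 0.0519, edgeR). Krt19 and Epcam averaged 4.63 and 3.77 CPM in knockout against 0.917 and 1.06 CPM in wild-type livers. T and NK cell markers were 4.89 to 5.36 CPM in knockout and 2.03 to 2.33 CPM in wild-type libraries, with 1 of 7 tested higher (Cd3g). Cd3g, and Igha of the B and plasma cell list, reached the filter on low counts through the knockout libraries, where they were high. Those calls therefore carry no support of their own. Neutrophil markers overlapped (78.5 to 109 CPM in knockout, 18.7 to 118 CPM in wild-type libraries), and 0 of 6 tested passed. Stellate cell markers overlapped too (117 to 250 CPM in knockout, 180 to 267 CPM in wild-type libraries), with 1 of 8 lower (Hand2). Intestinal markers summed to 47.1 to 51.8 CPM in knockout and 31.0 to 48.3 CPM in wild-type libraries. Of 3 tested, 1 was higher and 1 lower, and Cdx1 and Muc5b were at 0. Most of that sum was Fabp2, the higher gene (means of 42.0 and 19.3 CPM), while Lgals4 was the lower (4.42 and 11.9 CPM). Pancreatic markers summed to 14.5 to 22.9 and 4.60 to 8.89 CPM in those groups, nearly all of it Cela1. Cela1 (means of 18.5 and 6.64 CPM) was the 1 gene tested and was higher. Cpa1 and Pnlip were at 0, and Ctrb1, Prss2 and Amy2a5 averaged no more than 0.0982 CPM in either group. The part of these features in the Entpd3 and Entpd7 changes was not tested.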

How the data were processed

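The authors deposited 1 table of expected counts (read numbers estimated for each gene, not always whole), unscaled, with a column for every library, per the file headers. Trim Galore, STAR, Salmon and the build GRCm38 were used per the submitters' processing notes, which as seen here name no version, setting or annotation. Columns were matched to samples by title. Values were rounded to whole numbers, filtered with filterByExpr (minimum count 10), scaled by TMM and tested two-sided in edgeR 4.0.16 (R 4.3.3) by robust quasi-likelihood with genotype as the single factor. P-values were adjusted by the Benjamini-Hochberg method over 14069 genes. Standard errors came from the fold change and its F statistic, and intervals use the total degrees of freedom. Symbols (45143 of 45706 identifiers), exon lengths and positions came from GENCODE M21 (GRCm38). Rows without a symbol stayed in. Per-length levels use the union of annotated exons. The script was tested on simulated counts.

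The members and lists were chosen with earlier results of these data known. Of each pathway list, the 4 lowest p-values among members averaging 0 or more in log2 CPM set which could be named. For called members the 3 likest genes averaging 1 or more were named, predicted gene models, Riken clones and pseudogenes left out. One list symbol matched no gene. Within groups, the chi-square between pairs of libraries was 34.1 to 139 per gene, above counting noise, so none was a repeat sequencing of another library. This cannot show whether each library came from its own mouse. Alternatives included DESeq2 1.42.0 and limma 3.58.1 voom. An exact permutation test of 3 against 3 cannot go below 0.1.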

Additional observations from a re-analysis of the deposited data

How the results depend on the processing

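Entpd8 and Entpd7 kept direction and call under all 17 alternatives (log2 fold changes -6.14 to -5.36 and -1.44 to -1.04). Entpd1, Entpd2, Entpd4, Entpd5 and Entpd6 passed under none, and each changed sign under at least 1 alternative. Entpd3 stayed positive (1.26 to 1.95). The number of paralogs called higher was 0 with upper-quartile scaling, the stricter filter and the replicate block, and 0 without any 1 library. For all genes, leaving out 1 library gave 385 to 1390 higher and 218 to 1690 lower calls, against 1379 and 1492 with all libraries. The lowest counts came without KO 1. Among called pathway list genes, the replicate block ended the calls of Ampd3, Enpp2, Nt5c2, P2ry10, Gja1, Adora1, Uggt2, Slc35b3, Slc35a2 and Abcb1a. Library totals alone ended those of Nt5c2, Slc35b3 and Slc47a1, and upper-quartile scaling that of Nt5c2. Without the low-count filter, Nt5c2, P2ry10, Adora1 and Uggt2 did not pass. Adora1 and Uggt2 also did not pass with the trend by gene length removed.

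With the replicate block, 807 genes were higher and 661 lower, and Entpd3 did not pass (adjusted p = 0.0869). Deviations of same-numbered libraries had correlations of -0.0762, 0.0126 and -0.0853, and those of differently numbered pairs ran from -0.118 to 0.164. With 3 libraries per group these values cannot show whether same-numbered libraries share more than a number.

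Leaving out 1 library gave a residual Entpd8 level of 1.40% to 2.38% of wild type. With the longest transcript as gene length, Entpd1 held 51.0% and Entpd2 32.5% of the surface set in knockout livers. With the median transcript, which is short for Entpd1, knockout shares were 88.5% for Entpd1, 6.86% for Entpd2, 2.39% for Entpd3 and 2.27% for Entpd8, and wild-type shares were 39.4% for Entpd1, 3.04% for Entpd2 and 57.2% for Entpd8. Few counts limit Entpd3, and the cause of its lost calls was not tested.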
